A study of Chlorocebus aethiops with 8 samples.

Results

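The proteasome genes on this array were the probe sets with a single gene symbol that begins with PSMA, PSMB, PSMC, PSMD, PSME, PSMF or PSMG. There were 73 such probe sets of 52865 in the table, for 33 genes of 14132. Of these, 62 probe sets for 32 genes were bright enough to be tested, that is, in the upper 50% of probe sets by mean log2 intensity over all arrays (a limit of 4.32, or an intensity of 19.9). PSMB11, the thymus-specific catalytic subunit, was below that limit. PSMC3IP, with 8 probe sets, enters by its symbol, but it is a meiotic recombination protein that interacts with PSMC3 and no subunit, so 31 proteasome genes are described as such. Each gene is represented by its brightest probe set. A further 7 probe sets that name a PSM gene together with other genes were left out. The subunits PSMA4, PSMA5, PSMA6, PSMB3, PSMB4, PSMB9, PSMC1, PSMD3, PSMD4, PSMD12 and PSMD14 were not analysed here.

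The RNA came from COS cells, an SV40-transformed kidney line of the African green monkey, and was read on 8 Affymetrix rhesus macaque arrays, so the probes belong to a related species. All cells were transfected with siRNA at 0.5 nM, left 4 h without serum and 24 h in serum, split, and transfected again for 24 h. The siRNA was either directed to RNA helicase A (RHA, the product of DHX9) or a scrambled control. Each kind of cell gave cytoplasmic RNA and RNA from the polysome fractions of a sucrose gradient. This makes 4 groups of 2 arrays: cytoplasm control, cytoplasm RHA siRNA, polysome control and polysome RHA siRNA. The 2 replicate numbers in the labels are called set 1 and set 2. Nothing in the labels says that the sets are separate cultures. The p-values therefore rest on the spread among 8 arrays, which may be technical. In bulk RNA of this kind, fewer cells that express a gene and less of its RNA per cell cannot be told apart.

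The proteasome degrades proteins that carry ubiquitin chains. Its barrel, the 20S core, has outer rings of alpha subunits (PSMA genes), which gate the entry, and inner rings of beta subunits (PSMB genes), which hold the proteolytic sites. The 19S particle caps the barrel: its base contains the ATPases that unfold and thread the substrate (PSMC genes) and large scaffold subunits, and its lid holds the subunits around the deubiquitinating enzyme. Cells that lose proteasome activity are known to raise most subunit mRNAs together through the transcription factor NFE2L1.

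The siRNA target was lower on all 4 RHA siRNA arrays than on the control array of the same fraction and set. The DHX9 intensity in cytoplasmic RNA was 244 and 342 under control siRNA (set 1, then set 2, as in all pairs of values given here) and 130.1 and 254 under RHA siRNA. The polysomal values were 359 and 477 under control siRNA and 97.2 and 269 under RHA siRNA. The log2 difference over both fractions was -1.01 (SE 0.42), with an adjusted p of 1.00 in limma and of 0.162 with the set as a term in the model.

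Array medians lay between 19.3 and 20.8. The sets differed more than the groups did: 36 of the 62 proteasome probe sets (58.1%) differed between the sets at an adjusted p under 0.05 in limma, against 51.3% of all 26383 probe sets tested, 16 of them higher in set 2 and 20 lower. The differences are therefore given within each set beside the pooled value, and a difference with no set values is pooled. In set 1, the cytoplasm control array resembled the rest of its set least: its median correlation with them was 0.949, while the other 7 arrays reached at least 0.967 in theirs. The control transcripts that are probed near both ends (ACTB, EEF1A1 and GAPDH) had a 3' minus 5' log2 difference of 4.09 on that array, 3.73 in polysome RHA siRNA, 2.98 in cytoplasm RHA siRNA and 2.54 in polysome control of set 1. In set 2 it ranged from 3.56 to 4.15. Of 10 kidney tubule markers 6 lay above the limit for testing, among them AQP1 and EPCAM (mean log2 intensity 10.4 and 8.40), while CDH1, PAX2, LRP2 and UMOD lay below it. Of 9 fibroblast markers on the array 8 were above it, with VIM at 12.3, and COL1A2 was below. Of 7 leukocyte markers 4 were above it (CD68, at 7.15, CORO1A, CD74 and CD14), and PTPRC, ITGAM and LCP1 were below.

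No proteasome probe set passed an adjusted p of 0.05 in limma in any of the 7 comparisons: the siRNA effect in cytoplasm, in polysomes and in their mean, the polysomal minus the cytoplasmic effect (called the change in loading), and the polysome to cytoplasm ratio under control siRNA, under RHA siRNA and in their mean. The share of all probe sets that passed was 0% in each. With the set as a term it was 0.00758% for the mean siRNA effect and 0% in the other comparisons, again with no proteasome probe set among them. At an unadjusted p under 0.05, limma gave 0 of the 62 for the siRNA effect in cytoplasm (1.61% of all probe sets), in polysomes (0.519%) and in their mean (2.05%). It gave 1 for the change in loading (0.174%), 2 for the polysome to cytoplasm ratio under control siRNA (0.208%), and 0 under RHA siRNA (0.265%) and in the mean (0.224%). With the set as a term these numbers were 10 in cytoplasm (12.0% of all probe sets), 1 in polysomes (5.06%) and 3 in their mean (12.0%). They were 7 for the change in loading (3.97%), 8 for the ratio under control siRNA (4.12%), and 1 each under RHA siRNA (4.46%) and in the mean (4.02%). The values below are therefore descriptions of levels, and the counts of genes are set against the same counts over all 10106 genes tested.

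The first comparison asks how the cytoplasmic mRNA of the proteasome stood after RHA siRNA. The log2 difference was above 0 for 24 of the 31 proteasome genes (56.1% of all genes), with a median of 0.29 against 0.06 for all genes. The median was 0.49 in set 1 and -0.03 in set 2, so the higher level was a matter of set 1. In both sets 14 genes were higher (29.3% of all genes) and 5 were lower (24.1%). The intensities of the groups did not overlap for 7 genes, all higher under RHA siRNA (11.6% of all genes were higher without overlap and 8.88% lower). These were PSMB2, PSMB7, PSMC2, PSMC5, PSMD2, PSMD8 and PSMD11.

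**Figure D1:**
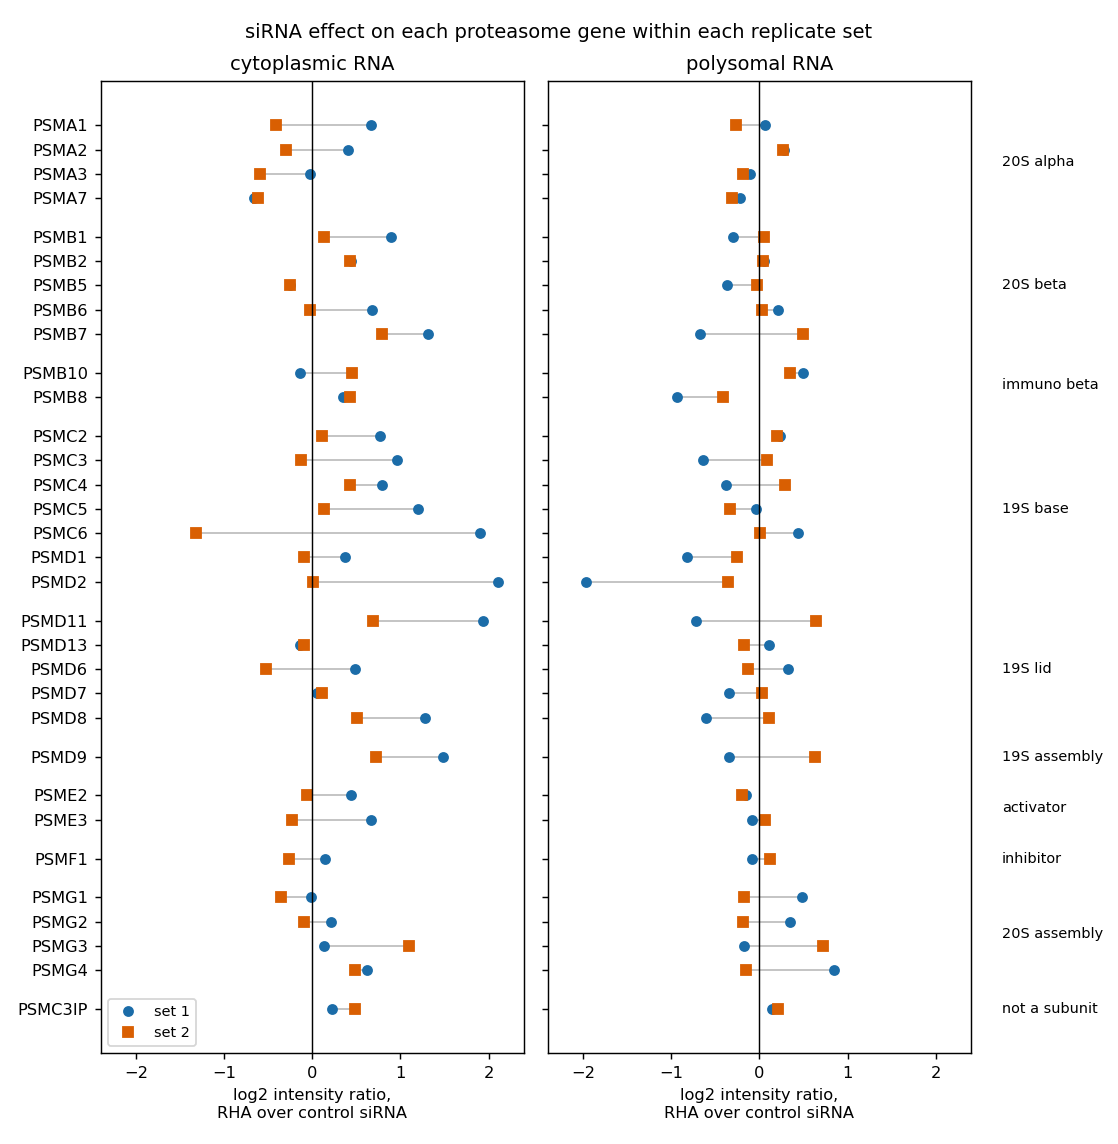
Each row is a tested gene, ordered by role, with its log2 intensity ratio of RHA siRNA over control siRNA in set 1 (circles) and set 2 (squares) joined by a line, for cytoplasmic RNA on the left and polysomal RNA on the right. In cytoplasm most 19S base and lid genes lie further to the right in set 1 (median 0.88) than in set 2 (0.06), and PSMC6 runs from 1.90 to -1.32.

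Among the alpha subunits of the core, all 4 were lower in cytoplasm after RHA siRNA in set 2, while 2 of the 4 were lower in set 1. PSMA7 was the member with the lowest value in this comparison. Its cytoplasmic intensity was 10144 and 5957 under control siRNA and 6403 and 3877 under RHA siRNA. The polysomal values were 9758 and 6612 under control siRNA and 8383 and 5342 under RHA siRNA. Within each set PSMA7 was thus lower under RHA siRNA in both fractions, although the groups overlapped because set 1 was higher throughout. Its log2 difference was -0.64 in cytoplasm (SE 0.47; -0.66 in set 1 and -0.62 in set 2) and -0.26 in polysomes (SE 0.47; -0.22 and -0.31). Over both fractions its adjusted p was 1.00 in limma and 0.314 with the set as a term, the lowest among proteasome probe sets in that comparison. Another tested probe set of PSMA7 gave -0.05 in cytoplasm (0.56 and -0.66), so the 2 tested probe sets had opposite signs in set 1 and the same sign in set 2.

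PSMA3 was also lower in both sets in cytoplasm by its brightest probe set. Its intensity was 3523 and 3414 under control siRNA and 3455 and 2259 under RHA siRNA, a log2 difference of -0.31 (SE 0.36; -0.03 and -0.60). The difference was thus nearly all in set 2. Under the 8 other settings that kept all arrays, the pooled value ran from -0.35 to 0.10, with 1 change of sign. PSMA1 went opposite ways, with a log2 difference of 0.67 in set 1 and -0.41 in set 2, and so did PSMA2, with 0.40 and -0.30.

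Of the 5 standard beta subunits, 4 had a log2 difference above 0 in cytoplasm, with a median of 0.43 (0.67 in set 1 and 0.14 in set 2). PSMB7, which carries the trypsin-like site, had an intensity of 947 and 914 under control siRNA and 2356 and 1580.5 under RHA siRNA. Both RHA siRNA arrays were above both control arrays, a 2.07-fold difference (log2 1.05, SE 0.46; 1.31 and 0.79), with an adjusted p of 1.00 in limma and 0.322 with the set as a term. PSMB2, a beta subunit without a catalytic site, was 1391 and 1212 under control siRNA and 1882 and 1635 under RHA siRNA. Its groups did not overlap either, and the 2 sets gave nearly the same log2 difference, 0.44 and 0.43.

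PSMB5, which carries the chymotrypsin-like site, was lower in both sets: 1015 and 524 under control siRNA, 854 and 441 under RHA siRNA. Its log2 difference was -0.25 in each set, but its other tested probe set gave 0.53 (0.99 and 0.08), and so the direction for PSMB5 depends on the probe set. PSMB1 had log2 differences of 0.89 and 0.14, and PSMB6, with the caspase-like site, 0.67 and -0.03. The catalytic subunits of the standard core thus had a log2 difference of -0.25 (PSMB5), 0.32 (PSMB6) and 1.05 (PSMB7) in the same RNA.

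All 7 genes of the 19S base had a cytoplasmic log2 difference above 0, with a median of 0.44, but the median was 0.96 in set 1 and 0.01 in set 2. PSMD2, a scaffold subunit that binds ubiquitin-like domains, was 133 and 319 under control siRNA and 574 and 322 under RHA siRNA. Set 1 differed by log2 2.11 and set 2 by 0.01, so the absence of overlap between its groups rests on set 1. PSMC5, an ATPase of the base, was 272 and 426 under control siRNA and 626 and 466 under RHA siRNA, with log2 differences of 1.20 and 0.13. PSMC2, another ATPase, was 1323 and 1784 under control siRNA and 2255 and 1932 under RHA siRNA, with differences of 0.77 and 0.11. In each of these 3 genes set 1 differed far more than set 2.

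PSMC4 had cytoplasmic log2 differences of 0.79 and 0.43 and was higher in both sets with overlapping groups. PSMC6 went opposite ways by a large amount. Its intensity was 131 and 661 under control siRNA and 488 and 264 under RHA siRNA, a log2 difference of 1.90 in set 1 and -1.32 in set 2. PSMC3 (0.96 and -0.12) and PSMD1 (0.37 and -0.10) also had opposite signs in the sets.

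In the lid, 3 of 5 genes had a pooled cytoplasmic value above 0 (4 in set 1 and 3 in set 2). PSMD11 had the highest value of all proteasome genes. Its intensity was 215 and 249 under control siRNA and 828 and 403 under RHA siRNA, a 2.49-fold difference (log2 1.32, SE 0.71; 1.94 and 0.69), with an adjusted p of 1.00 in limma and 0.341 with the set as a term. Its other tested probe set gave 1.81 (2.70 and 0.92). PSMD8 was 610.3 and 648 under control siRNA and 1482 and 923 under RHA siRNA, a 1.86-fold difference (log2 0.90, SE 0.39; 1.28 and 0.51). Both arrays of RHA siRNA were above both control arrays for PSMD11 and PSMD8. PSMD7, the structural partner of the lid's deubiquitinating enzyme, had 0.06 and 0.11, PSMD13 had -0.14 and -0.09, and PSMD6 had 0.49 and -0.52. The lid thus held genes with a large difference beside genes with almost none.

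PSMD9, an assembly chaperone of the base that is not part of the finished particle, differed most between sets among the proteasome subunits and chaperones, 6.28-fold higher in set 2. Its cytoplasmic intensity was 229 and 1704 under control siRNA and 642 and 2818 under RHA siRNA. The RHA siRNA array was higher in each set (log2 1.49 and 0.73), but the groups overlapped. Its adjusted p was 0.309 with the set as a term, the lowest of the proteasome probe sets in cytoplasm, and 1.00 without it. Its other tested probe sets gave 0.57 (0.39 and 0.75) and 0.38 (0.47 and 0.29).

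Among the assembly chaperones of the core, PSMG3 had log2 differences of 0.13 and 1.10 and PSMG4 of 0.62 and 0.48, while PSMG1 had -0.02 and -0.35 and PSMG2 0.21 and -0.09. The second tested probe set of PSMG3 gave -0.73 (-0.61 and -0.84) against 0.61 for the brighter one, and its direction is therefore not settled. The activators PSME2 (0.44 and -0.06) and PSME3 (0.67 and -0.23), which open the core gate without ubiquitin, and the regulator PSMF1 (0.15 and -0.26) had opposite signs in the sets. Of the immunoproteasome subunits, which replace standard beta subunits after interferon, PSMB8 had 0.35 and 0.42 and PSMB10 -0.14 and 0.46.

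The second comparison is that of polysomal RNA, where RHA siRNA left no common direction. Of the 31 proteasome genes, 13 had a value above 0 (49.7% of all genes), and the median was -0.04 (-0.10 in set 1 and 0.03 in set 2). The 20S core and the 19S base and lid had the same pooled median, -0.10. Within the sets the core median was -0.10 and 0.03 and that of the 19S base and lid -0.36 and 0.02. Groups did not overlap for 3 genes that were higher (PSMB10, PSMC2 and PSMC6; 7.97% of all genes) and 2 that were lower (PSMC5 and PSMD2; 9.03%).

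PSMD2 had the lowest polysomal value. Its intensity was 945 and 426 under control siRNA and 242 and 334 under RHA siRNA, a log2 difference of -1.16 (SE 0.61; -1.97 and -0.35). Both RHA siRNA arrays were below both control arrays. PSMB8, at a low intensity, was 66.1 and 34.5 under control siRNA and 34.6 and 26 under RHA siRNA, a log2 difference of -0.67 (SE 0.47; -0.93 and -0.41) with an adjusted p of 1.00 in limma and 0.963 with the set as a term. PSMB10 was 427 and 545 under control siRNA and 601 and 693 under RHA siRNA, a log2 difference of 0.42 (SE 0.35; 0.49 and 0.35). The 2 immunoproteasome subunits thus stood on opposite sides of 0 in polysomal RNA in both sets. PSMC2 was 1875 and 1880.3 under control siRNA and 2198 and 2166 under RHA siRNA, a small difference (0.23 and 0.20) without overlap. PSMC2 was also the one proteasome gene whose 4 RHA siRNA arrays all lay above its 4 control arrays over both fractions. Of all genes, 1.86% were higher in this way and 1.46% lower. This was the brightest probe set of PSMC2, and its second tested one had opposite signs in the sets in cytoplasm.

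In the mean of both fractions 21 of the 31 proteasome genes were above 0 (53.8% of all genes), with a median of 0.10 (0.25 in set 1 and -0.02 in set 2). The median was 0.16 for the core (0.30 and -0.02) and 0.16 for the 19S base and lid (0.27 and -0.06), so the pooled difference between them was 0.003. PSMD11 (0.64; 0.61 and 0.67) and PSMD9 (0.62; 0.57 and 0.68) had the highest values, nearly equal in the sets. For both genes this mean joins unlike parts: the polysomal differences were -0.72 and 0.64 for PSMD11 and -0.34 and 0.63 for PSMD9.

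The third comparison is the change in polysome loading, that is, the siRNA effect in polysomal RNA minus that in cytoplasmic RNA. It uses all 4 groups and therefore shares the cytoplasmic arrays with the first comparison. The value was below 0 for 21 of the 31 proteasome genes and above 0 for 10 (46.8% of all genes), with a median of -0.23 (-0.54 in set 1 and -0.09 in set 2) against -0.03 for all genes. In both sets 14 genes were below 0 (28.2% of all genes) and 2 above (26.9%). The 19S base and lid had a median of -0.66 (-1.22 in set 1 and -0.08 in set 2), with 2 of 12 genes above 0. The core had a pooled median of -0.20, with 4 of 9 genes above 0, but the sets had opposite signs: -0.38 with 1 of 9 above 0 in set 1, and 0.14 with 6 of 9 above 0 in set 2. All 7 base genes were below 0 in the pooled values, 4 of them in both sets. Of the alpha subunits 3 of 4 were above 0 in the pooled values, with a median of 0.20, but in set 1 it was 1 of 4, with a median of -0.10, and in set 2 all 4, with 0.36. Of the 5 beta subunits 1 was above 0, with a median of -0.39 (-0.46 and -0.09). The difference between alpha and beta subunits was not tested.

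**Figure D2:**
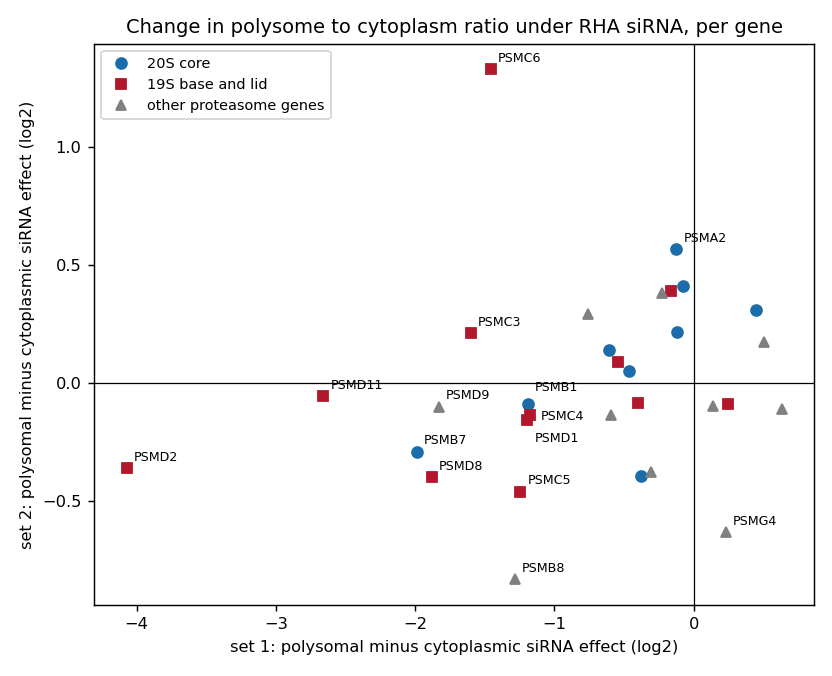
Each point is a proteasome gene, plotted by its change in polysome loading under RHA siRNA (the polysomal minus the cytoplasmic log2 difference) in set 1 and in set 2. PSMD2 lies at -4.07 in set 1 and -0.36 in set 2, and the values cover a wider range on the axis of set 1.

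PSMD2 had the lowest change in loading, -2.22 (SE 0.87; -4.07 and -0.36), with an adjusted p of 1.00 in limma and 0.967 with the set as a term. PSMD11 (-1.36; -2.66 and -0.05), PSMB7 (-1.14; -1.99 and -0.29), PSMD8 (-1.14; -1.88 and -0.40) and PSMB8 (-1.06; -1.28 and -0.83) followed. PSMB8 was the one among them with values of like size in the sets. PSMA7 was on the other side by its brightest probe set, with 0.38 (0.44 and 0.31). Under the 8 other settings that kept all arrays, its value ran from -0.02 to 0.38, with 1 change of sign. In 3 of the 31 proteasome genes, PSMB8, PSMC5 and PSMD2, the siRNA difference was above 0 in cytoplasm and below 0 in polysomes in both sets (5.96% of all genes). None had the reverse pattern (3.96% of all genes). When the cytoplasm control array from set 1 was left out and the set was a term, the value was -1.33 for PSMD2, -0.65 for PSMD11, -0.88 for PSMB7, -0.87 for PSMD8 and -1.05 for PSMB8.

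The polysome to cytoplasm ratio under each siRNA shows the same arrays from the other side. Under control siRNA the polysomal level was higher for 26 of the 31 proteasome genes (61.8% of all genes), with a median log2 ratio of 0.26 (0.42 in set 1 and 0.16 in set 2) against 0.08 for all genes. Groups did not overlap for 7 genes, all higher in polysomes (10.2% of all genes, with 4.58% lower): PSMB2, PSMB7, PSMB8, PSMC2, PSMC5, PSMD2 and PSMD8. All 12 genes of the 19S base and lid and 8 of the 9 core genes were above 0. PSMD2 had the highest ratio, 3.07-fold (log2 1.62, SE 0.61; 2.83 and 0.42). Under RHA siRNA 14 of the 31 genes were above 0 in the pooled values (52.0% of all genes), with a median of -0.06. The sets went opposite ways: 10 of the 31 were above 0 in set 1, with a median of -0.13, and 22 in set 2, with a median of 0.12. All genes tested did likewise: 4611 of 10106 were above 0 in set 1, with a median of -0.04, and 6225 in set 2, with 0.10. No proteasome gene was higher and 2 were lower in polysomes without overlap (PSMB7 and PSMC3; 7.63% of all genes were lower and 9.83% higher).

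In the mean of both siRNAs all 9 core genes and 11 of the 12 genes of the 19S base and lid were above 0, out of 25 of the 31 proteasome genes (63.2% of all genes). The median log2 ratio was small, 0.18 for the core (0.14 in each set) and 0.22 for the 19S base and lid (0.28 and 0.15), against 0.07 for all genes. In this comparison 19 proteasome genes were above 0 in both sets (40.0% of all genes). No proteasome gene was without overlap (0.386% of all genes were higher and 0.356% lower).

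Core and 19S particle were then set side by side. In cytoplasm the median siRNA difference of the core was 0.30 log2 below that of the 19S base and lid (0.13 against 0.43), and it lay 0.44 below in set 1 and 0.31 below in set 2. In polysomes the pooled medians differed by 0.003, while the core was 0.26 above in set 1 and 0.0091 above in set 2. The change in loading was 0.46 log2 higher in the core (0.84 in set 1 and 0.23 in set 2). Since 9 and 12 genes of the same arrays are not replicates, the difference between the particles was not tested. The cytoplasm control array from set 1, the lowest of its set for most of these genes, enters both values. When that array was left out and the set was a term, the core was 0.35 below the 19S base and lid in cytoplasm (-0.19 against 0.17) and 0.42 above in the change in loading (0.08 against -0.34). When it was left out and no term was used, the core was 0.007 above the 19S base and lid in cytoplasm, and 0.06 below in the change in loading.

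**Figure D3:**
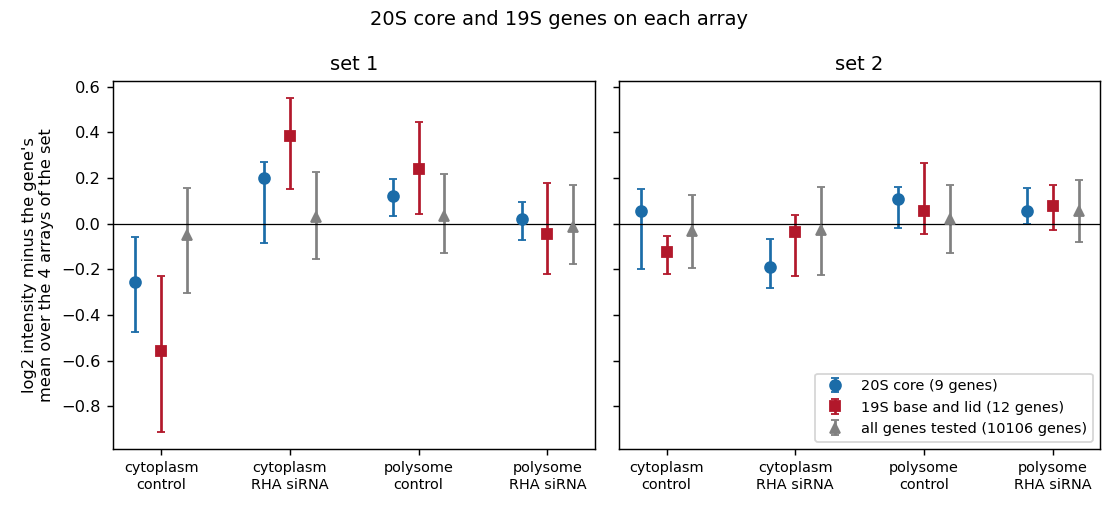
Points are the median over genes of log2 intensity minus the mean of the gene over the 4 arrays of its set, for the 20S core (9 genes), the 19S base and lid (12) and all genes tested (10106), with bars from the lower to the upper quartile. In set 1 the cytoplasmic control array is the lowest for both particles (-0.26 and -0.56), and in set 2 all medians lie between -0.19 and 0.11.

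The level on each array shows on which arrays these differences lie. Relative to the mean of the gene over its set, the median of the 19S base and lid in set 1 was -0.56 in cytoplasm control, 0.38 in cytoplasm RHA siRNA, 0.24 in polysome control and -0.04 in polysome RHA siRNA. For the core these values were -0.26, 0.20, 0.12 and 0.02. In set 2 the 19S medians were -0.12, -0.04, 0.06 and 0.08 and the core medians 0.05, -0.19, 0.11 and 0.05. The cytoplasm control array of set 1 was the lowest array of its set for 21 of the 31 proteasome genes (67.7%), against 34.9% of all genes. It was the lowest for 9 of 12 genes of the 19S base and lid and for 6 of 9 core genes. In set 2 the cytoplasmic arrays shared the lowest place, 14 genes each.

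The spread among the arrays of a set was compared as well, with no test. The median ratio of the highest to the lowest array in set 1 was 1.98 for the 19S base and lid and 1.58 for the core, against 1.55 for all genes. In set 2 it was 1.42, 1.35 and 1.44. PSMD2 had a ratio of 7.09 in set 1 and 1.33 in set 2, PSMD11 of 4.00 and 1.84, and PSMC6 of 3.87 and 2.50. At the other end, PSMD13 had a ratio of 1.11 in set 1 and PSMD7 of 1.14 in set 2.

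**Figure D4:**
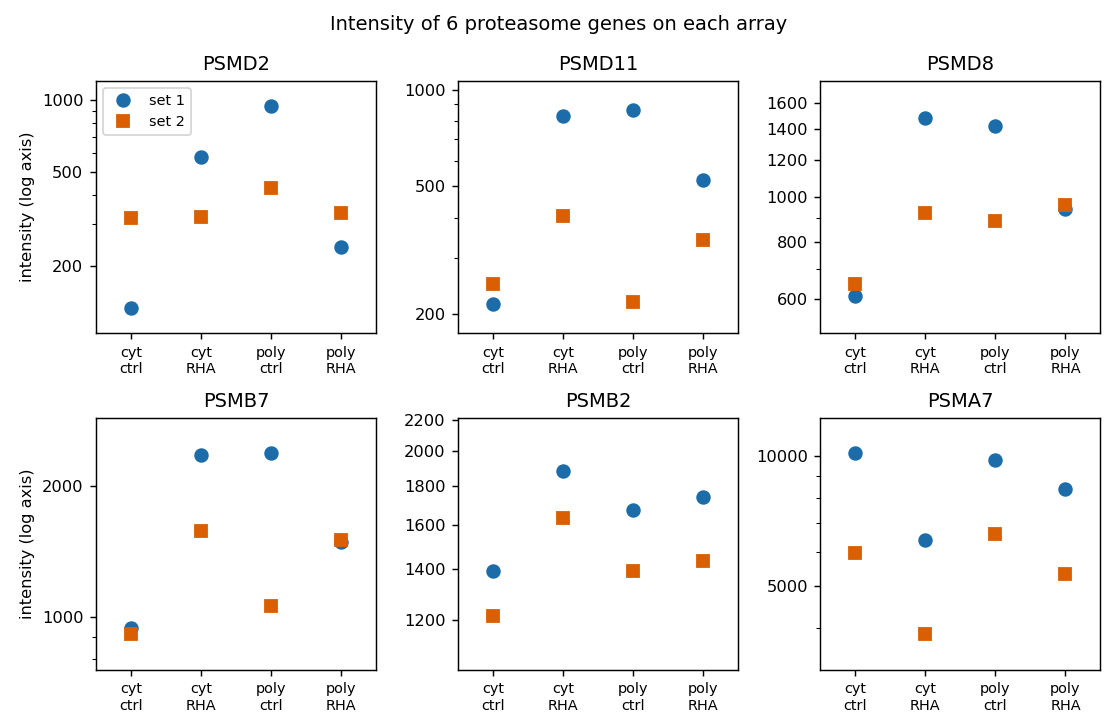
Intensity of 6 proteasome genes on each of the 8 arrays, on log axes that differ between panels, with circles for set 1, squares for set 2 and the groups (cyt for cytoplasm, poly for polysome) along the horizontal axis. PSMD2 runs from 133 to 945 in set 1 and from 319 to 426 in set 2, while PSMA7 is lower under RHA siRNA in both fractions within each set.

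In set 1 the 3' minus 5' difference of the control transcripts changed in the direction opposite to these levels. Under RHA siRNA it was lower by 1.10 in cytoplasm and higher by 1.19 in polysomes, while the median of the 19S base and lid was higher by 0.88 in cytoplasm and lower by 0.36 in polysomes. The core median was higher by 0.44 in cytoplasm and lower by 0.10 in polysomes. In set 2 the control difference was 0.26 lower in cytoplasm and 0.33 lower in polysomes, and the 19S medians were 0.06 and 0.02. The core medians of set 2 were -0.25 and 0.03, so in cytoplasm the core was lower together with the control difference. In a count added after the values were seen, 6 of the 31 proteasome genes (PSMB7, PSMB8, PSMC3, PSMD2, PSMD11 and PSMF1) had the order of the set 1 arrays that is the exact reverse of the control difference, against 6.12% of all genes. In set 2 it was 1 gene, PSMD11, against 5.19%. The part of this difference in the proteasome values was not tested. COL1A1, a fibroblast collagen outside the proteasome, had a log2 difference of 1.36 in cytoplasm (1.52 and 1.20) and -1.18 in polysomes (-1.98 and -0.37). The median of the 8 tested fibroblast markers was 0.24 in cytoplasm (0.03 in set 1 and 0.62 in set 2), that of the 6 kidney markers -0.05 (-0.23 and 0.05) and that of the 4 leukocyte markers -0.14 (-0.39 and 0.26).

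**Figure D5:**
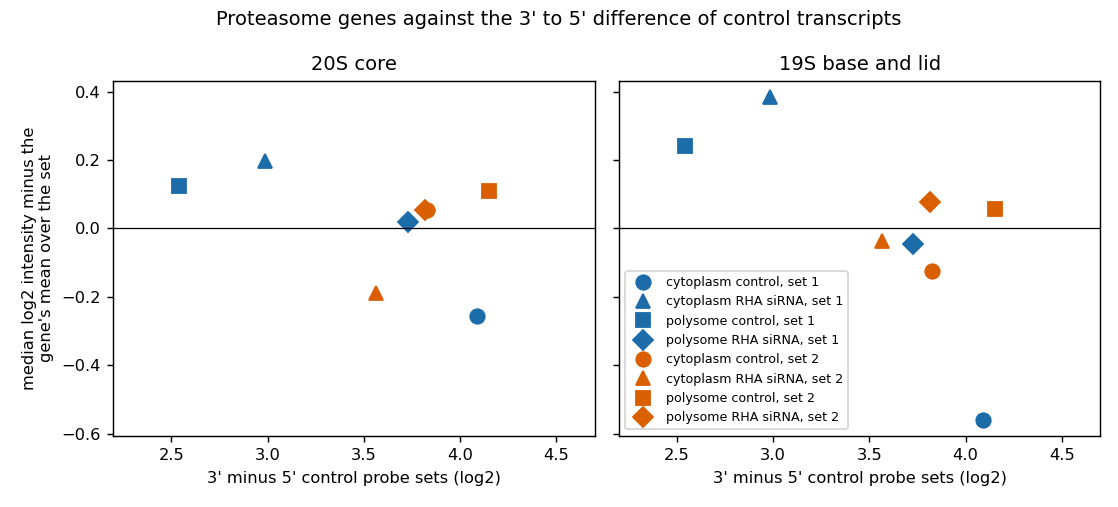
Each point is an array, plotted by its 3' minus 5' log2 difference of the control transcripts and by the median log2 intensity of the 20S core or of the 19S base and lid relative to the mean of each gene over the set. In set 1 the array with a difference of 4.09 has the lowest medians, and the set 2 arrays lie between 3.56 and 4.15.

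Several genes had more than 1 tested probe set, which allows a check of direction within a gene. For the 18 genes with 30 further tested probe sets, 20 of the 30 had the sign of the brightest probe set in the cytoplasmic siRNA comparison. It was 19 in the polysomal one, 21 in their mean and 17 in the change in loading. In polysome against cytoplasm it was 24 under control siRNA, 12 under RHA siRNA and 20 in the mean of both siRNAs. PSMC5 (0.67 and 0.89 in cytoplasm), PSMC2 (0.44 and 0.67), PSMC4 (0.61 and 0.48) and PSMD11 (1.32 and 1.81) had like pooled values in their tested probe sets. The second probe set of PSMC2 had opposite signs in the sets, however (1.85 and -0.50). PSMD1 had 0.14 in its brightest and 0.99 in its second probe set, and the latter also had opposite signs in the sets (2.35 and -0.37). PSMF1, with 4 tested probe sets, had pooled cytoplasmic values from -0.06 to 0.73. PSMC3IP, the gene that enters by symbol alone, had pooled values from 0.14 to 0.75 over its 7 tested probe sets in cytoplasm, and 14.5 times the intensity in set 2 for one of them.

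Other genes of the pathway, from a list of proteasome partners and regulators, were about evenly divided in the pooled values. Of 17 tested, 9 were above 0 in cytoplasm after RHA siRNA, with a median of 0.03 (0.19 in set 1 and -0.16 in set 2). In polysomes it was 10, with a median of 0.02 (0.01 and -0.01). None passed an adjusted p of 0.05. In cytoplasm 3 of the 17 were higher in both sets (29.3% of all genes) and 6 were lower (24.1%). Those lower by the most were UBE3A (-0.49; -0.02 and -0.95), NGLY1 (-0.42; -0.22 and -0.63), UFD1 (-0.28; -0.31 and -0.25) and UBQLN2 (-0.24; -0.15 and -0.33). The 3 higher ones were NFE2L1, ADRM1 and FBXO7. NFE2L1 is the transcription factor that raises proteasome genes when degradation is impaired. ADRM1 is a ubiquitin receptor of the 19S particle, and FBXO7 is an F-box protein that binds PSMF1. The intensity of NFE2L1 was 200.3 and 400.4 in cytoplasm under control siRNA and 327 and 649.6 under RHA siRNA. The polysomal values were 294 and 417 under control siRNA and 297 and 683 under RHA siRNA. The cytoplasmic difference of NFE2L1 was alike in the sets (log2 0.70; 0.71 and 0.70; SE 0.60), and its adjusted p with the set as a term was 0.357. NFE2L2, the related factor of the oxidative stress response, had -0.18 (-0.19 and -0.16).

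Like PSMD11 and PSMB7, ADRM1 had a larger difference in set 1 than in set 2. Its intensity in cytoplasm was 41.3 and 36.2 under control siRNA and 102 and 51.3 under RHA siRNA, and in polysomes 107 and 40.4 against 62 and 50.7. The cytoplasmic log2 difference was 0.91 (SE 0.57; 1.31 and 0.50) and the change in loading -1.14 (-2.10 and -0.18). NPLOC4, a cofactor of the segregase that hands substrates to the proteasome, had the lowest polysomal value of the list, -0.56 (SE 0.35; -0.80 and -0.33). The chaperone PAAF1 and the adaptor ECPAS, both of which bind the 19S particle, had opposite signs in the sets: the cytoplasmic difference was 1.82 in set 1 and -0.44 in set 2 for PAAF1 (pooled 0.69), and 1.86 and -0.51 for ECPAS (pooled 0.68).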

How the data were processed

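The deposited table holds intensity values on a linear scale, 1 per probe set and array, with array medians close together, taken as already normalised by the authors. GCOS and RMA are the tools in the submitters' processing notes, without version or role. Probe sets were named from GEO's platform annotation, in which 24969 of the 52865 had 1 gene symbol, 361 several and 27535 none. There were 99 control probe sets. Values were put on the log2 scale and the upper 50% by mean were tested (26383 probe sets, 10106 genes). A model of 4 groups was fitted over 8 arrays with limma 3.58.1 in R 4.3.3 (lmFit, eBayes, two-sided), with Benjamini-Hochberg adjustment over all probe sets tested. Unadjusted p-values are named as such. For arrays there is no read depth: the number of arrays limits the precision. The script was tested on simulated data.

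The named members are up to 5 per direction and comparison with the largest change of 1 sign in both sets, up to 4 pathway genes, and members of a role that illustrate its spread, chosen after their values were seen. The members, lists and roles were chosen with earlier results of these data known. Arrays of the same replicate number deviated together (correlations of 0.68 to 0.87), but with 2 numbers and no statement in the labels they were not taken to pair the samples. The main model of 4 groups had no term for the set, and the labels do not call the sets a batch. The alternatives were another value scale, other filters, quantile or median scaling, an intensity trend, the set as a block, the mean of the probe sets of a gene, and leaving out each array.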

Additional observations from a re-analysis of the deposited data

Results flagged for a closer look

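In 3 of the 31 proteasome genes and 2 of the 17 pathway genes the siRNA difference had one sign in cytoplasm and the opposite sign in polysomes, in both sets. Of all genes tested, 5.96% were above 0 in cytoplasm and below 0 in polysomes in this way, and 3.96% the reverse. The difference between the fractions (the change in loading, log2) was -2.22 for PSMD2, -1.06 for PSMB8, -0.85 for PSMC5, -0.60 for FBXO7, an F-box protein that binds PSMF1, and 0.47 for UFD1, a cofactor of the segregase that unfolds ubiquitinated proteins. Each had an adjusted p of 1.00 in limma and of 0.967 with the set as a term. The sets differed in size for PSMD2 (-4.07 and -0.36) and less so for PSMB8 (-1.28 and -0.83). FBXO7 had a low intensity, from 27.9 to 41.8 over the arrays, and its polysomal difference was -0.51 in set 1 and -0.06 in set 2. The pattern was also found in the marker genes COL1A1, with a change in loading of -2.54 (-3.50 and -1.58), and KRT8, an epithelial keratin, with -0.92 (-1.43 and -0.42).

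The median change in loading of the 20S core stood 0.46 above that of the 19S base and lid. The core was 0.44 and 0.31 below the 19S genes in cytoplasm in the sets, and 0.26 and 0.0091 above them in polysomes. The polysomal value of set 2 is thus near 0, and the pooled one was -0.003. This difference was not tested.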

How the results depend on the processing

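The number of proteasome probe sets called stayed at 0 in all 7 comparisons under another value scale, both filters, both scalings, the intensity trend, the replicate block, and with each array left out in turn without the block. With the replicate block and an array left out, the number was 0 to 1 for the mean siRNA effect, 0 to 8 in cytoplasm, 0 to 5 for polysome against cytoplasm under control siRNA and 0 to 1 for its mean over siRNAs. Each of the higher numbers came when set 2's cytoplasm control array was left out, which leaves 1 array in that group. The share of all probe sets called in these fits was not determined. Whether the proteasome probe sets stood out from the other probe sets in them was therefore not tested, and nothing is concluded from these numbers. The core minus 19S value of the mean siRNA effect (0.003) was 0.019 with log2(intensity + 16), -0.079 in the upper 25% of probe sets and 0.088 with the mean of the probe sets of a gene. That of the polysomal effect was 0.20 with the mean of the probe sets. With an array left out, core minus 19S ran from -0.35 to 0.22 for the mean effect, -1.01 to 0.0074 in cytoplasm, -0.25 to 0.31 in polysomes, -0.16 to 1.37 for the change in loading, -0.88 to 0.17 for polysome against cytoplasm under control siRNA, -0.050 to 0.54 under RHA siRNA and -0.26 to 0.065 in their mean. With the replicate block as well, the ranges were -0.12 to 0.071, -0.41 to -0.30, -0.07 to 0.13, 0.14 to 0.63, -0.51 to -0.09, 0.12 to 0.34 and -0.13 to 0.01. The cause of these shifts was not tested. Alternatives for the block and for arrays left out under it were added after the data were seen. No scaling moved the median of all probe sets tested by over 0.1.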

Other observations

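Genes of interferon response and antigen presentation, a list that bears on the immunoproteasome, went opposite ways in the sets. Of 8 tested, 3 had a cytoplasmic siRNA difference above 0 in set 1, with a median of -0.13, and 7 in set 2, with a median of 0.18. In polysomes 1 of 8 was above 0 in set 1, with a median of -0.32, and 7 of 8 in set 2, with a median of 0.19. The pooled medians were -0.06 and -0.11. None passed an adjusted p of 0.05 in limma. PDIA3, a chaperone of the peptide-loading complex, had the highest cytoplasmic value, 0.82 (1.04 in set 1 and 0.61 in set 2), and B2M, the light chain of MHC class I, had 0.46 (0.57 and 0.35). The peptide transporter subunits TAP1 and TAP2 had -0.06 (-0.22 and 0.11) and 0.36 (0.20 and 0.52).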
